A study of Mus musculus with 12 samples.

Results

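Notch1, Notch2, Notch3, Hes1, Dtx1, Nrarp and Heyl were followed in splenic γδ T cells, thymic γδ T cells and thymic DN1–DN3 cells of mice labelled WT or GFI1 KO. These 7 genes, of 33696 gene features in the matrices, were chosen by name as 3 Notch receptors and 4 of their known target genes, and each was found once (ENSMUSG00000026923, ENSMUSG00000027878, ENSMUSG00000038146, ENSMUSG00000022528, ENSMUSG00000029603, ENSMUSG00000078202 and ENSMUSG00000032744, in that order). GFI1 is a zinc-finger transcriptional repressor. The KO animals carried the deletion in the germline, so it was present in every cell of the animal, and all animals were adult, kept on the C57BL6/J background, with no treatment named. Each compartment was given by 2 libraries labelled WT and 2 labelled KO, 12 in all, and the number of animals behind a library is not given in the sources used here. Thymic γδ T and DN1–DN3 cells came from the same animals. Since nothing states that the libraries of a group came from separate animals, the p-values measure only the spread between these libraries.

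The Notch pathway works by contact between cells. A ligand of the Delta or Jagged family pulls on the receptor, the γ-secretase complex cuts the receptor inside the membrane, and the freed intracellular part enters the nucleus, where it binds RBPJ and a Mastermind protein and turns on target genes. In the thymus, Notch1 is the receptor needed for commitment to the T lineage and for passage of early thymocytes through β-selection, the step at which the pre-TCR containing Ptcra is assembled, and signalling normally drops after that step. Notch2 is best known in lymphocytes for its role in marginal zone B cells, and Notch3 is itself induced by Notch1 in early thymocytes. Hes1 encodes a repressor of the basic helix-loop-helix family, Heyl a related repressor, Dtx1 (Deltex1) an E3 ubiquitin ligase, and Nrarp an ankyrin-repeat protein that feeds back on the nuclear Notch complex.

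The upstream sequences of 5 of the 7 genes were held by the RefSeq table used here (build GRCm38.p6, matched by symbol), and Hes1 and Heyl were not in it. A window of 250 bases before the transcription start is printed for Dtx1, which rose in KO DN classes, for Nrarp, which rose in KO thymic γδ T cells, and for Notch3, which fell in KO thymic γδ T cells. Capitals mark AATC or its reverse complement GATT, the core letters of the GFI1 motif. The Dtx1 window is chr5:120711670-120711919 (minus strand), the Nrarp window chr2:25180508-25180757 (plus strand) and the Notch3 window chr17:32166891-32167140 (minus strand).
Dtx1: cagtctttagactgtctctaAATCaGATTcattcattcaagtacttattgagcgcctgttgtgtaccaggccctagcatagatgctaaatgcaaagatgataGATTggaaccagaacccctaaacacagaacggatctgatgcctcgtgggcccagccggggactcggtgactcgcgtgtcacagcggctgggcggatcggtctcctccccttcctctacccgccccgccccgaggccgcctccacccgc
Nrarp: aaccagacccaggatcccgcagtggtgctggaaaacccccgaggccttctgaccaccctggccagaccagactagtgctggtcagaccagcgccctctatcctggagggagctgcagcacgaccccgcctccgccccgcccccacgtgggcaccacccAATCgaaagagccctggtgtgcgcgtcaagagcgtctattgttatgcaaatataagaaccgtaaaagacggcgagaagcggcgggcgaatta
Notch3: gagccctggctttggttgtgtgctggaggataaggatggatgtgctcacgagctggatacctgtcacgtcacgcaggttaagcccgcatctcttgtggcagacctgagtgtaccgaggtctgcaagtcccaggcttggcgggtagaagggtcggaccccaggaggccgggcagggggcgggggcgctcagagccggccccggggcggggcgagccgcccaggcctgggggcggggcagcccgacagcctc
Dtx1 held 3 such matches, beginning 230, 225 and 148 bases before the start, and Nrarp held 1 at 92 bases. Notch1, Notch2 and Notch3 held none. AATC or GATT occurred in 69.0% of the 32851 windows of the same length, so a match is common. The RBPJ core TGGGAA, or TTCCCA on the other strand, occurred in 21.6% of them and in none of the 5 windows. Nothing about binding follows from letters in a window.

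Libraries held 6795 to 11679 cells and 42091895 to 71663962 UMIs, with a median of 4947 to 6853 UMIs per cell. Levels are given as CPM, the UMIs of a gene scaled to a fixed total of UMIs over all kept cells of a library, and were not scaled by transcript length, so they order libraries but not genes. Gfi1 RNA itself was 11.8 and 18.0 CPM in WT against 18.1 and 18.1 CPM in KO splenic libraries, 16.5 and 17.6 against 28.9 and 19.2 CPM in thymic γδ libraries, and 44.7 and 40.6 against 70.6 and 56.6 CPM in DN libraries. It was therefore not lower in any library labelled KO than in the WT library of the same pool, and which part of the gene the allele lacks is not given in the sources used here. The genotype below is that of the label. The 5 γδ T markers (Trdc, Trgc1, Trgc2, Cd3e, Cd3g) had UMIs in all 12 libraries and summed to 3496 to 6954 CPM in the γδ libraries and 3372 to 3653 CPM in the DN libraries. The 6 DN markers (Kit, Il2ra, Ptcra, Rag1, Cd44, Dntt) summed to 1291 to 1678 CPM in DN libraries and 138 to 723 CPM in γδ libraries. The first DN KO library stood apart from the second, with 164 against 72.0 CPM of the 4 DP or αβ T cell markers (27.3 to 31.3 CPM in WT), of which Trac was 154 and 65.6 CPM (18.8 and 20.7 CPM in WT). Lists of other cell types that also did not overlap between DN KO and DN WT libraries were the B-lineage markers (136 to 264 against 115 to 122 CPM, of which Ighm 112 and 225 against 92.8 and 97.9), the myeloid or dendritic markers (142 to 159 against 99.4 to 102 CPM, with Fcer1g at 30.5 and 29.8 against 7.99 and 5.55), the NK or ILC1 markers (18.7 to 23.7 against 9.33 to 13.6 CPM) and the erythroid markers (3.31 to 4.09 against 12.1 CPM). Most of the myeloid or dendritic sum was Cst3 (124 and 106 against 83.9 and 88 CPM), while Lyz2 was lower in KO (3.56 and 5.53 against 6.05 and 7.7 CPM). Csf1r, Itgam, Itgax and Siglech were at most 0.534 CPM in any DN library. The γδ T markers summed to 3372 to 3415 CPM in DN KO and 3508 to 3653 CPM in DN WT libraries. Of these, Trdc (126 and 163 against 192 and 199 CPM), Trgc1 and Trgc2 were lower in KO. Cd3e was higher (654 and 518 against 470 and 502 CPM), and Cd3g overlapped. The DN markers summed to 1291 to 1497 CPM in KO and 1649 to 1678 CPM in WT. Kit, Il2ra and Dntt (492 and 553 against 787 and 850 CPM) were lower in KO. Cd44 (136 and 49.8 against 14.4 and 10.3 CPM) and Rag1 (224 and 318 against 203 and 216 CPM) were higher, and Ptcra overlapped. Apart from a fit without cells with Cd79a or Cd79b, their part in the DN results was not tested.

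**Figure D1:**
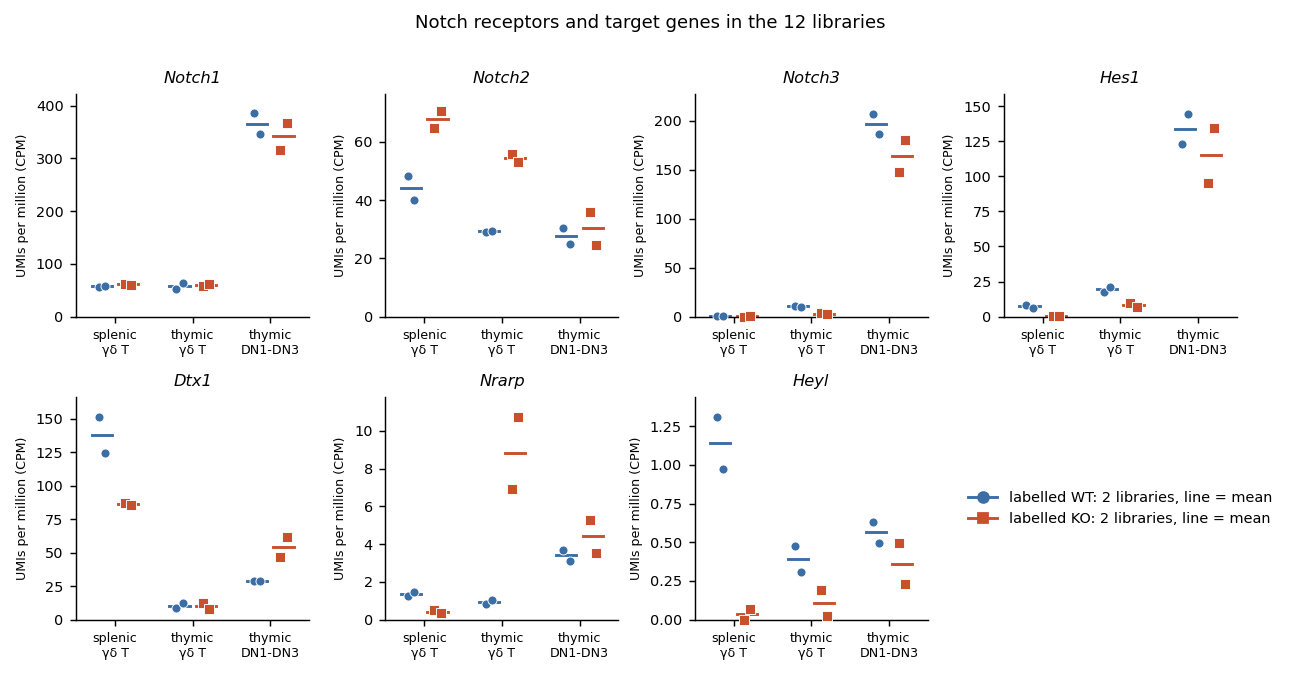
CPM of the 7 genes in each of the 12 libraries, by compartment and label, with 1 point per library and the mean of the 2 libraries of a group as a line. Notch1, Notch3 and Hes1 were highest in the DN libraries, Dtx1 in the splenic libraries, and Nrarp in the thymic γδ KO libraries.

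Across WT compartments the receptors and targets were ordered differently. Notch1 was 386 and 346 CPM in DN cells, 52.0 and 64.4 CPM in thymic γδ T cells and 55.8 and 58.5 CPM in splenic γδ T cells. The DN level stood clear of both γδ compartments, which overlapped each other. With the quasi-likelihood test of edgeR, adjusted over all genes by the Benjamini-Hochberg method, the thymic γδ minus DN log2 difference of Notch1 was -2.63 ± 0.14 (SE, adjusted p = 9.05e-07), and the splenic minus thymic γδ difference was 0.05 ± 0.13 (adjusted p = 0.764). Notch3 descended at each step, from 206 and 186 CPM in DN to 10.6 and 10.2 CPM in thymic γδ and 0.356 and 0.319 CPM in splenic γδ libraries, by -4.22 ± 0.21 (adjusted p = 9.37e-07) and then -4.86 ± 0.29 (adjusted p = 2.37e-06). Hes1 followed the same order at 123 and 144, 17.6 and 21.0, and 8.15 and 6.42 CPM, with differences of -2.78 ± 0.23 (adjusted p = 1.46e-05) and -1.33 ± 0.23 (adjusted p = 0.00115). Dtx1 had its own order: 28.6 and 28.8 CPM in DN, 8.65 and 12.2 CPM in thymic γδ and 151 and 125 CPM in splenic γδ libraries. The splenic minus thymic γδ difference of Dtx1 was 3.80 ± 0.24 (adjusted p = 3.38e-06). Notch2 varied least, with 30.4 and 24.8, 29.0 and 29.5, and 48.1 and 40.0 CPM, and only its splenic minus thymic γδ step passed the test (0.67 ± 0.14, adjusted p = 0.00295). Nrarp was 3.69 and 3.11, 0.831 and 1.03, and 1.26 and 1.48 CPM, and Heyl was at most 1.31 CPM in any library. Of the 7 genes, 5 passed the thymic γδ against DN test in WT, where 47.2% of all genes tested did, and 5 passed the splenic against thymic γδ test, where 48.8% did. Heyl was among the latter (1.62 ± 0.56, adjusted p = 0.0351), and its call was lost after thinning and without any 1 of the 4 WT libraries (adjusted p up to 0.19). Splenic libraries held at most 0.374 CPM of Xist against 739 to 1600 CPM in thymic libraries, so the sex of the animals and the tissue cannot be told apart in the splenic comparison.

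In splenic γδ T cells, 5 of the 7 genes fell and 1 rose in the libraries labelled KO, against 54.8% of all genes called in either direction in the same comparison. Hes1 was 8.15 and 6.42 CPM in WT (343 and 382 UMIs) and 0.534 and 0.489 CPM in KO libraries (25 and 34 UMIs). The groups did not overlap, and the log2 difference was -3.74 ± 0.32 (adjusted p = 8.21e-06). Heyl went from 1.31 and 0.974 CPM (55 and 58 UMIs) to 0 and 0.0719 CPM (0 and 5 UMIs), where a count of 0 in that library allows up to 0.0641 CPM. Its summed level was 25.9 times higher in WT (95% exact interval 10.8 to 81.2, counting error only), with an adjusted p of 0.000618. For these scarce genes the interval of the count ratio says more than the fitted fold, which depends on the prior count.

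Notch3 and Nrarp were also close to the limit of detection in the spleen. Notch3 had 15 and 19 UMIs in WT and 0 and 5 in KO libraries (0.356 and 0.319 against 0 and 0.0719 CPM), a WT to KO ratio of 7.78 (3.03 to 25.5). The adjusted p of 0.00587 rose to 0.345 when every cell was thinned to 3000 UMIs. Nrarp had 53 and 88 against 23 and 23 UMIs (1.26 and 1.48 against 0.491 and 0.331 CPM), a ratio of 3.51 (2.50 to 5.01) with an adjusted p of 0.00189. Dtx1 was far better covered, at 151 and 125 CPM in WT and 86.9 and 85.5 CPM in KO libraries, without overlap. Its log2 difference was -0.58 ± 0.22 (adjusted p = 0.0428), and -0.81 to -0.50 over 13 alternatives. The call was lost under 8 of these 13. They were the fits without any 1 of the 4 splenic libraries, and the fit with the pool as a block (adjusted p = 0.0534). The others were no filter on low counts, all genes kept, and no cells with Cd79a or Cd79b.

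Of the other receptors, Notch2 was 48.1 and 40.0 CPM in WT and 65.0 and 70.7 CPM in KO splenic libraries, a rise of 0.72 ± 0.14 (adjusted p = 0.00145). After thinning to 3000 UMIs, a Notch2 UMI was found in 12.4% and 10.7% of WT and 17% and 18.4% of KO cells (20.6%, 17.6%, 29.4% and 32.0% unthinned), and no cell type known to lack Notch2 was set aside to give the background. Notch1 was 55.8 and 58.5 CPM against 61.5 and 60.2 CPM, a difference of 0.18 ± 0.13 that did not pass the test (adjusted p = 0.253). With 2 libraries against 2, an exact permutation test of a share cannot go below p = 0.333, which is what it gave for Notch2.

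The make-up of the splenic γδ T cells differed between labels, and bulk sums cannot tell fewer cells of a type from less RNA per cell. Cells whose leading variable-chain gene was Trgv6 made up 2.40% and 2.05% of WT and 43.8% and 39.5% of KO splenic cells. Markers listed for other cells moved with the label as well: the 4 DP or αβ T markers summed to 199 to 251 CPM in WT and 60 to 65.2 CPM in KO, and the 5 NK or ILC1 markers to 106 to 124 and 11.4 to 11.8 CPM. Most of the NK or ILC1 sum in WT was Eomes (61.5 and 80.5 against 3.14 and 4.68 CPM) and Klrb1c (31.1 and 30.7 against 6.58 and 5.94 CPM). Ncr1 was 3.06 and 2.22 CPM in WT. Whether γδ T cells or other cells held these transcripts was not tested. The 5 erythroid markers, all with UMIs, summed to 38.8 to 44.0 in WT and 75.0 to 167 CPM in KO, and of the 5 thymic epithelial markers Epcam was 15.4 and 13.3 against 0.726 and 0.734 CPM while Krt5, Krt8, Psmb11 and Foxn1 were at or near 0 in all. The 6 DN markers summed to 138 to 154 CPM in WT and 678 to 723 CPM in KO, most of it Cd44 (96.7 and 83 against 552 and 518 CPM) and Il2ra (25.3 and 21.4 against 169 and 158 CPM), while Kit (25.5 and 25.3 against 1.28 and 1.51 CPM) and Dntt (6.13 and 8.32 against 0.171 and 0.432 CPM) were lower in KO. The 7 B-lineage markers summed to 222 to 442 and 63.2 to 120 CPM, most of it Ighm (411 and 195 against 67.6 and 10.5 CPM), while Cd79b was higher in KO (27.9 and 23.7 against 50.9 and 50.8 CPM). The 7 myeloid or dendritic markers summed to 120 to 136 and 316 to 340 CPM, most of it Cst3 (102 and 90.7 against 312 and 337 CPM), while Fcer1g was lower in KO (29.1 and 27.6 against 3.08 and 2.04 CPM). In each splenic library UMIs were found for at least 3 of the 4 DP or αβ T, 4 of the 5 NK or ILC1, 7 of the 7 B-lineage, 6 of the 7 myeloid or dendritic and 5 of the 6 DN markers. Apart from a fit without cells with Cd79a or Cd79b, their part in the bulk differences was not tested. Within Trgv6-called cells, Dtx1 was 158 and 147 CPM in WT and 84.2 and 84.5 CPM in KO libraries, and it fell (log2 difference -0.89 ± 0.12, adjusted p = 0.000612). This call was kept under all 12 alternatives tried for it. Dtx1 was the only 1 of the 3 tested genes that passed there, against 12% of all genes. Notch2, in contrast, was 74.1 and 79.0 CPM in WT and 64.4 and 73.4 CPM in KO Trgv6-called cells (-0.20 ± 0.14, adjusted p = 0.428), so its rise over all splenic cells was not seen inside this class. Notch1 did not pass there (0.17 ± 0.15, adjusted p = 0.561), and Hes1, Heyl, Notch3 and Nrarp had too few UMIs for a test.

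Cells led by another Trgv gene were summed in the same way, without a test. Hes1 was 8.67 and 7.49 CPM in WT and 0.364 and 0.429 CPM in KO, and Heyl was 1.65 and 1.15 CPM in WT with no UMI in either KO library, which over both allows up to 0.0938 CPM. Dtx1 stood at 162 and 126 against 79.5 and 78.6 CPM and Notch2 at 47.0 and 38.6 against 65.9 and 68.3 CPM. The Trgv call is limited, since 40.4% to 44.2% of WT and 31.6% to 33.7% of KO cells had no call and a cell led by another gene may still carry a Trgv6 chain whose UMIs were not captured. KO cells led by another Trgv gene held Il2ra at 168 and 158 CPM (21.4 and 18.2 CPM in WT), close to the 175 and 165 CPM of KO Trgv6-called cells. Whether the classes hold different cells was not tested.

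In thymic γδ T cells, 2 of the 7 genes rose and 2 fell, against 49.7% of all genes called in this comparison. Nrarp showed the largest fold of the 7. It was 0.831 and 1.03 CPM in WT and 6.94 and 10.7 CPM in KO libraries, a rise of 3.37 ± 0.30 on the log2 scale (adjusted p = 1.57e-05). After thinning to 3000 UMIs it was found in 0.188% and 0.169% of WT and 2.29% and 3.40% of KO cells (0.66%, 0.891%, 4.06% and 6.06% unthinned), and no cell type that should lack Nrarp was set aside here to give its background. Notch2 rose from 29.0 and 29.5 to 55.8 and 53.1 CPM (1.02 ± 0.14, adjusted p = 0.000199).

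Notch3 fell from 10.6 and 10.2 to 3.57 and 2.34 CPM (-1.70 ± 0.22, adjusted p = 0.000144), and Hes1 from 17.6 and 21.0 to 9.54 and 6.52 CPM (-1.15 ± 0.23, adjusted p = 0.00236). WT and KO libraries overlapped in none of these 4 called genes, nor in Heyl, and how many of all genes did not overlap was not counted. Notch1 (52.0 and 64.4 against 58.4 and 61.0 CPM, adjusted p = 0.337) and Dtx1 (8.65 and 12.2 against 12.1 and 7.91 CPM, adjusted p = 0.873) overlapped. Heyl, with 28 and 22 UMIs in WT and 8 and 1 in KO libraries, gave a log2 difference of -1.77 ± 0.76 that did not pass the test (adjusted p = 0.0767).

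Trgv6-called cells were 0.60% and 0.72% of WT and 29.9% and 35.3% of KO thymic γδ T cells, and the 4 differences related to this split in different ways. Nrarp was high in KO cells of every class: 9.73 and 12 CPM in Trgv6-called cells, 5.90 and 8.36 CPM in cells led by another Trgv gene, and 5.72 and 12.1 CPM in cells with no Trgv call. The corresponding WT values of Nrarp were 0.873 and 0.94 CPM with another Trgv gene and 0.684 and 1.41 CPM with no call. The 41 and 57 Trgv6-called WT cells held no Nrarp UMI, which allows up to 4.50 CPM. Hes1 was 18.4 and 21.5 CPM in WT and 16.7 and 13.7 CPM in KO cells led by another Trgv gene, a much smaller gap than over all cells, and it was 0.499 and 0.741 CPM in the KO Trgv6-called cells (6 and 12 UMIs), where the few WT cells of this class held 0 and 6 UMIs, the latter being 16.0 CPM. Notch3 was 10.5 and 9.17 CPM in WT and 5.80 and 4.21 CPM in KO cells led by another Trgv gene, and 11.3 and 14.1 against 2.91 and 1.69 CPM in cells with no call. In Trgv6-called cells Notch3 was 0.666 and 0.988 CPM in KO, against 0 and 1 UMI in WT. Notch2 was 28.2 and 29.1 CPM against 53.7 and 45.0 CPM in cells led by another Trgv gene. In Trgv6-called cells Notch2 had 33 UMIs in WT and 1707 in KO, summed over the libraries of a label. Its summed level in KO was 1.22 times that in WT (exact interval 0.868 to 1.78, counting error only). This interval includes equal levels, so a rise of Notch2 inside this class was not shown. These class values were not tested. The 7 B-lineage markers, at least 5 of them with UMIs, summed to 156 to 158 CPM in WT and 64.2 to 81.6 CPM in KO, most of it Ighm (139 and 137 against 54.7 and 37.3 CPM), while Cd79b was higher in KO (18.0 and 17.7 against 26.5 and 25.7 CPM). The 7 myeloid or dendritic markers, at least 6 with UMIs, summed to 106 to 113 and 180 to 195 CPM, most of it Cst3 (95.6 and 88.7 against 185 and 174 CPM), while Fcer1g was lower in KO (16.2 and 16.2 against 9.33 and 5.42 CPM). Of the thymic epithelial markers Epcam was 29.2 and 30.2 against 9.33 and 5.25 CPM, and Krt5, Krt8, Psmb11 and Foxn1 were at or near 0 in all. The 6 DN markers summed to 209 to 245 CPM in WT and 448 to 592 CPM in KO, with Cd44 (34.9 and 34.7 against 295 and 420 CPM) and Il2ra (17.5 and 28.4 against 111 and 144 CPM) higher and Dntt (122 and 142 against 30.8 and 19.5 CPM) and Kit (28.1 and 27.5 against 7.01 and 4.69 CPM) lower in KO, as Notch3 and Hes1 were. The DP or αβ T markers summed to 65.2 to 70.0 against 54.4 to 54.9 CPM and the erythroid markers to 3.43 to 5.78 against 1.76 to 2.20 CPM. Apart from a fit without cells with Cd79a or Cd79b, the part of these in the differences was not tested.

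Among DN1–DN3 cells, 1 of the 7 genes passed the test, against 23% of all genes. Dtx1 was 28.6 and 28.8 CPM in WT and 46.6 and 62.1 CPM in KO libraries, a rise of 0.93 ± 0.22 (adjusted p = 0.0139) without overlap. Without the first KO library it was 1.16 ± 0.23 (adjusted p = 0.0116). The call was lost without the first WT (adjusted p = 0.105), the second WT (0.0637) or the second KO library (0.0789), and after thinning (0.0558). Notch1 was 386 and 346 against 315 and 367 CPM and Hes1 123 and 144 against 95.1 and 135 CPM, and both overlapped between labels. Notch3 was 206 and 186 against 148 and 180 CPM, without overlap, and did not pass (-0.25 ± 0.18, adjusted p = 0.352). It passed after thinning (-0.54 ± 0.17, adjusted p = 0.0423) and without the second KO library (-0.50 ± 0.17, adjusted p = 0.0416), and was -0.08 ± 0.17 without the first KO library, which stood apart. The shares of cells thinned to 3000 UMIs that held a UMI were lower in both KO libraries for each of these genes: 67.1% and 63.5% against 48.2% and 58.8% for Notch1, 43.6% and 41.6% against 26.8% and 35.4% for Notch3, and 30.4% and 35.0% against 19.4% and 29.7% for Hes1. Unthinned they were 86.7% and 84.5% against 61.5% and 74.1% for Notch1, 64.2% and 60.2% against 38.9% and 52.9% for Notch3, and 45.9% and 50.5% against 30.0% and 44.1% for Hes1. The exact permutation p was 0.333 for each, the smallest possible, and the Dtx1 share was higher in KO, at 9.21% and 10.3% against 12.2% and 17.5% thinned (18.1%, 18.3%, 20.9% and 30.4% unthinned). Notch2 (adjusted p = 0.548), Nrarp (0.353) and Heyl (0.452) did not pass either.

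**Figure D2:**
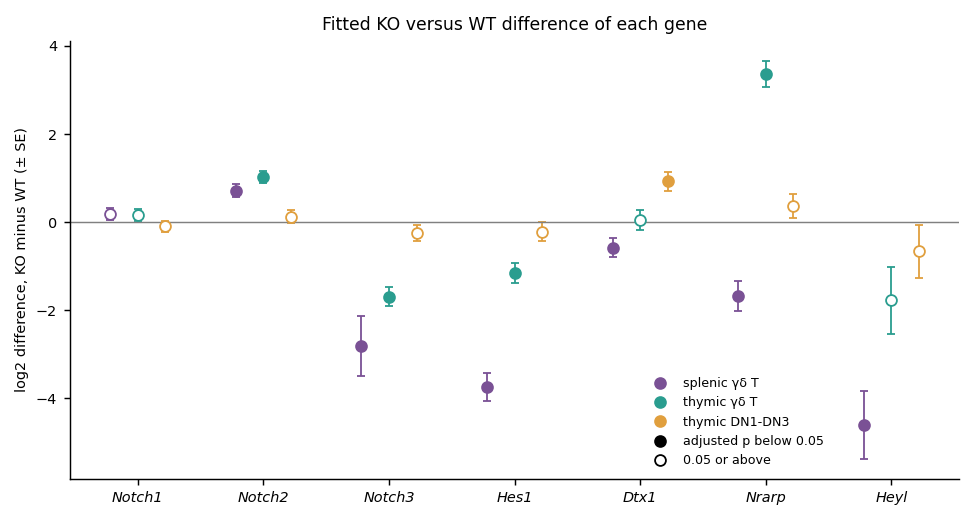
KO minus WT log2 difference of each of the 7 genes in splenic γδ T, thymic γδ T and DN1–DN3 cells, with the standard error of the fit as bars and filled points where the adjusted p was under 0.05. Nrarp lay on opposite sides of 0 in the spleen (-1.67) and the thymic γδ T cells (3.37), and Dtx1 rose in DN cells (0.93).

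The KO effects were also compared directly between compartments. Between splenic and thymic γδ T cells, Hes1 differed by -2.59 ± 0.40 (adjusted p = 0.00145) and Nrarp by -5.04 ± 0.44 (adjusted p = 5.83e-05), so 2 of 7 were called where 29.5% of all genes were. Nrarp fell in one compartment and rose in the other. Since Xist was at most 0.374 CPM in splenic and at least 739 CPM in thymic libraries, tissue and sex cannot be told apart in these differences. The Notch2 rises in the γδ compartments differed by -0.30 ± 0.20 (adjusted p = 0.277), which does not show that they were alike. Between thymic γδ T and DN cells, Notch2 (0.89 ± 0.20, adjusted p = 0.0106), Notch3 (-1.45 ± 0.28, adjusted p = 0.00626) and Nrarp (3.0 ± 0.39, adjusted p = 0.000837) differed, 3 of 7 against 21.8% of all genes. The Notch2 call was lost without the first DN WT library (adjusted p = 0.0507). Hes1 (-0.94 ± 0.31) missed the threshold at an adjusted p of 0.0597 and passed it under 5 of 16 alternatives, among them the pool as a block (0.0301). Dtx1 (-0.88 ± 0.32, adjusted p = 0.0773) also missed it and passed under 4 of 16. Nrarp, lower in thymic γδ T than in DN cells of WT animals (-1.84 ± 0.29, adjusted p = 0.000586), was for its part higher in thymic γδ T than in DN cells of KO animals (1.16 ± 0.27, adjusted p = 0.00391). Of the 7 genes, 6 passed that KO test, against 57.3% of all genes, with Notch2 higher in thymic γδ T cells (1.00 ± 0.14) and Notch1 (-2.38 ± 0.14), Notch3 (-5.67 ± 0.23), Hes1 (-3.71 ± 0.24) and Dtx1 (-2.31 ± 0.23) lower. In the splenic against thymic γδ comparison of KO animals 4 of 7 passed, against 36.6%, namely Nrarp (-4.41 ± 0.33, adjusted p = 7.33e-06), Dtx1 (3.17 ± 0.24, adjusted p = 1.04e-05), Notch3 (-5.99 ± 0.45) and Hes1 (-3.92 ± 0.32).

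DN cells were next divided by 2 transcripts. Kit, the receptor for stem cell factor, marks the earliest DN stages, and Ptcra, the pre-TCR α chain, marks cells at and around β-selection. The Kit class held cells with at least 1 Kit UMI and under 2 of Ptcra (982 and 839 WT, 460 and 486 KO cells), and the Ptcra class those with at least 2 Ptcra UMIs and none of Kit (1350 and 1776 WT, 913 and 1982 KO cells). Cells past both limits were left out. The Kit class was 13.6% and 11.2% of WT but 6.58% and 6.43% of KO cells, and 61.7% to 78.4% of cells were in neither class. Both classes were deeper than the whole, with medians of 7862 to 8947 UMIs per cell in the Kit class and 6421 to 7194 in the Ptcra class, since a limit on UMIs selects deep cells. The Kit class still carried Il2ra at 344 to 513 CPM and is not a pure DN1 population.

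Within the Kit class, Dtx1 was the gene that separated the labels. It was 15.3 and 15.4 CPM in WT and 43.2 and 42.4 CPM in KO libraries, a rise of 1.51 ± 0.14 (adjusted p = 3.93e-06) that was kept under all 14 alternatives tried for it. It was the only 1 of 6 tested genes to pass there, against 9.02% of all genes. Dtx1 was also found in more Kit class cells thinned to 3000 UMIs, 5.61% and 4.74% in WT and 11.5% and 13.1% in KO (12.8%, 12.3%, 27.4% and 28% unthinned). No cell type known to lack Dtx1 was set aside to give its background share. Notch1 (307 and 276 against 328 and 288 CPM), Notch3 (120 and 111 against 138 and 118 CPM) and Hes1 (118 and 123 against 116 and 122 CPM) did not pass, with adjusted p of 0.836, 0.589 and 0.987, nor did Notch2 (-0.05 ± 0.15, adjusted p = 0.955) or Nrarp (-0.19 ± 0.33, adjusted p = 0.904).

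The Ptcra class showed the same for Dtx1, at 48.1 and 48.7 CPM in WT and 95 and 96.7 CPM in KO libraries (0.99 ± 0.10, adjusted p = 8.22e-07, kept under all 14 alternatives). It was again the only gene called, 1 of 7 against 18.4% of all genes. Its share of thinned cells was 15.3% and 17.4% in WT and 26.2% and 28.6% in KO (33.0%, 31.2%, 49.0% and 50.3% unthinned). Notch1 was 480 and 432 CPM in WT and 573 and 539 CPM in KO libraries without overlap, and its difference of 0.29 ± 0.11 missed the threshold (adjusted p = 0.085). With the pool as a block, 5 of the 7 passed in place of 1: Dtx1, Notch1 (adjusted p = 1.36e-05), Notch3 (277 and 253 against 312 and 290 CPM, 0.00497), Hes1 (151 and 180 against 175 and 193 CPM, 0.0275) and Notch2 (25.9 and 23.0 against 19.8 and 19.2 CPM, 0.0227), the last lower in KO. The block also raised the number of all genes called, from 2226 to 3854. Nrarp (-0.16 ± 0.32, adjusted p = 0.804) and Heyl (0.07 ± 0.54, adjusted p = 0.954) did not pass without the block.

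The large remainder in neither class behaved otherwise. There Notch1 was 369 and 320 CPM in WT and 242 and 280 CPM in KO, Notch3 201 and 171 against 104 and 129 CPM, and Hes1 112 and 134 against 70.3 and 104 CPM, all lower in both KO libraries. Dtx1 was again higher, at 23.8 and 22.1 against 33.5 and 45.3 CPM. These sums were not tested.

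Passing from the Kit to the Ptcra class, Notch1, Notch3, Hes1 and Dtx1 rose under both labels. Since the classes were set by Kit and Ptcra UMIs, genes that vary with either transcript differ between them by the choice of cells. The calls therefore describe the classes and are no independent result. In WT the log2 differences were 0.69 ± 0.05 for Notch1 (adjusted p = 1.7e-10), 1.24 ± 0.05 for Notch3 (adjusted p = 5.34e-14), 0.50 ± 0.06 for Hes1 (adjusted p = 3.8e-07) and 1.70 ± 0.09 for Dtx1 (adjusted p = 9.31e-13). Nrarp fell (5.67 and 4.08 against 3.30 and 2.54 CPM, -0.69 ± 0.25, adjusted p = 0.0474), a call lost under 7 of 12 alternatives. In all, 5 of 6 tested genes were called in WT, where 23.5% of all genes were, and 5 of 6 in KO, where 31.8% were. In KO the rises were 0.88 ± 0.05, 1.26 ± 0.06, 0.65 ± 0.06 and 1.18 ± 0.08 for Notch1, Notch3, Hes1 and Dtx1, and Notch2 fell (-0.50 ± 0.12, adjusted p = 0.00278), a call lost with DESeq2 (adjusted p = 0.0904) and without the first KO library (0.158). The Dtx1 step was smaller in KO (difference -0.52 ± 0.12, adjusted p = 0.0154), 1 of 6 against 6.15% of all genes. That difference was lost under 6 of 14 alternatives, among them each fit without the first WT, the second WT or the second KO library.

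Cells of the Ptcra class with a UMI of Mki67 or Top2a, genes of proliferating cells, had less Notch1, Notch3, Hes1 and Dtx1 than those without, while Notch2 did not pass (-0.09 ± 0.13 in WT, adjusted p = 0.567, and 0.10 ± 0.15 in KO, adjusted p = 0.605). In WT, Notch1 was 400 and 349 CPM in cycling and 682 and 607 CPM in non-cycling cells, Notch3 196 and 173 against 483 and 422 CPM, Hes1 112 and 124 against 251 and 298 CPM, and Dtx1 34.0 and 32.5 against 84.1 and 82.5 CPM. The log2 differences were -0.65 ± 0.05, -1.15 ± 0.05, -1.08 ± 0.06 and -1.19 ± 0.09, and 4 of 6 tested genes were called where 55.7% of all genes were. Cycling cells were deeper (8600 to 9997 against 5591 to 6485 UMIs). In KO the same 4 genes fell by smaller amounts, with -0.48 ± 0.05, -0.68 ± 0.05, -0.56 ± 0.06 and -0.73 ± 0.07. The difference between the labels was not tested. Dtx1 was higher in KO in both states, 73.4 and 71.5 CPM in cycling and 124 and 130 CPM in non-cycling cells. Notch3 in KO was 238 and 222 CPM in cycling and 414 and 380 CPM in non-cycling cells, and Hes1 was 144 and 152 and 219 and 246 CPM, so that KO libraries lay above WT in cycling and below WT in non-cycling cells, without a test. Nrarp did not pass in WT (0.65 ± 0.39, adjusted p = 0.144) but did in KO (5.40 and 2.85 against 0.884 and 0.837 CPM, 25 and 27 against 3 and 6 UMIs, 2.19 ± 0.47, adjusted p = 2.13e-05), which made 5 of 6 against 43% of all genes. That Nrarp call was not tested after thinning, and DESeq2 gave it no adjusted p.

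**Figure D3:**
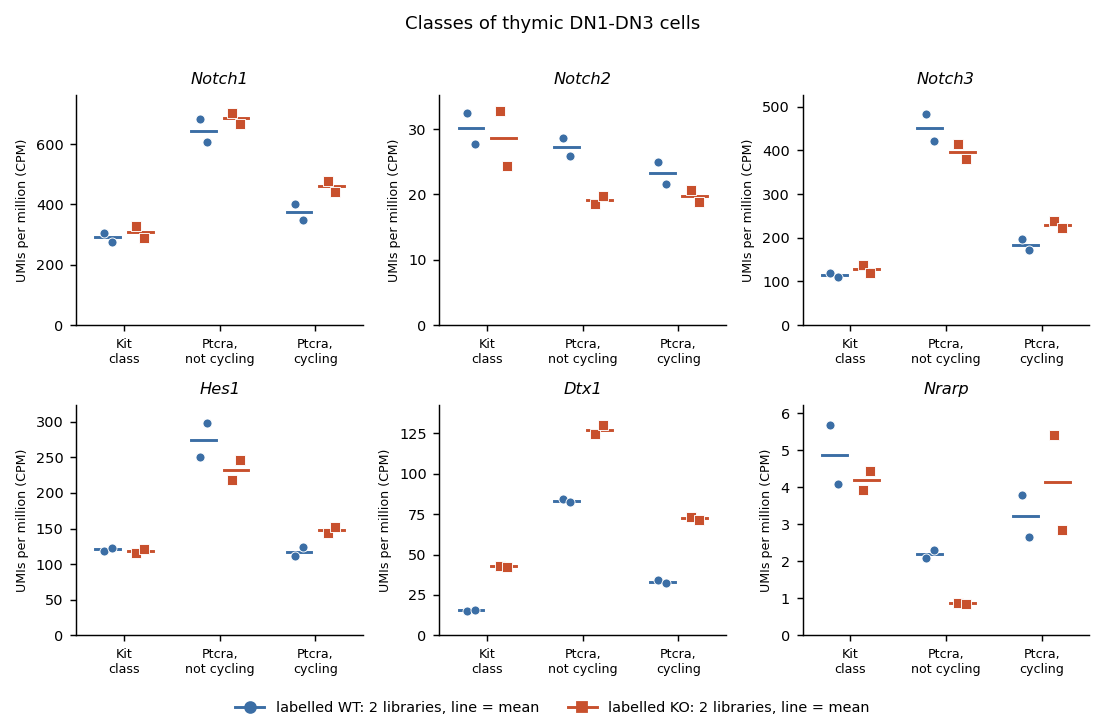
CPM of 6 of the 7 genes (Heyl was too scarce) in the Kit class and in the non-cycling and cycling cells of the Ptcra class, with 1 point per library and the mean of each label as a line. Dtx1 was higher in KO than in WT libraries in every class (124 and 130 against 84.1 and 82.5 CPM in non-cycling cells), while Notch3 and Hes1 were lower in KO libraries in non-cycling and higher in cycling cells.

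Thymic γδ T cells were divided in the same manner by Cd24a, whose product is high on immature and lost from mature γδ thymocytes. Cells with at least 2 Cd24a UMIs were 8.79% and 10.1% of WT (599 and 801 cells) and 2.35% and 1.51% of KO (160 and 115 cells), with medians of 12798 to 17008 UMIs per cell against 5617 to 6118 in cells without Cd24a UMIs. In these Cd24a-high cells, Dtx1 was 4.15 and 5.10 CPM in WT and 22.6 and 24.3 CPM in KO libraries (45 and 79 against 54 and 45 UMIs), a rise of 2.35 ± 0.23 (adjusted p = 0.000176) kept under all 13 alternatives. Hes1 was 30.7 and 33.2 against 59.1 and 41.7 CPM (0.70 ± 0.16, adjusted p = 0.0223), a call lost without the first KO library (adjusted p = 0.343), after thinning (0.329) and with a limit of 4 Cd24a UMIs (0.47). That made 2 of 6 tested genes, against 8.51% of all genes. Nrarp was 1.47 and 2.20 against 1.68 and 2.70 CPM, with only 4 and 5 UMIs in KO, and Notch2 23.5 and 23.6 against 21.0 and 20.6 CPM, so neither passed (adjusted p = 0.873 and 0.639).

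Cells without Cd24a UMIs (Cd24a-low) were 79.2% and 75.7% of WT and 93.5% and 95.3% of KO thymic γδ T cells. They make up most of the whole, so likeness to it was given by the split, which does not locate the changes. How Trgv6-called cells were divided between the Cd24a classes was not counted. Nrarp was 0.626 and 0.651 CPM in WT and 7.67 and 11.5 CPM in KO libraries (4.05 ± 0.30, adjusted p = 0.000402), and Notch2 31.1 and 32.5 against 60 and 55.1 CPM (0.99 ± 0.06, adjusted p = 0.000248). Notch3 fell from 9.99 and 7.75 to 1.95 and 1.23 CPM (-2.35 ± 0.25, adjusted p = 0.00123) and Hes1 from 13.6 and 15.2 to 5.83 and 4.25 CPM (-1.39 ± 0.16, adjusted p = 0.00148). Notch1 rose by a little (49.6 and 54.5 against 56.8 and 60.1 CPM, 0.31 ± 0.08, adjusted p = 0.0282), a call lost without the first or the second WT library and with scaling by library size alone. In total 5 of 7 passed, against 55.2% of all genes. Dtx1 was 10.4 and 16.4 against 11.3 and 6.76 CPM, overlapping between labels (adjusted p = 0.294).

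The Cd24a classes were set by Cd24a UMIs and differ in depth, so genes that vary with either differ between them by the choice of cells. Calls between these classes describe them and are no independent result. Between the Cd24a classes of a library, Hes1 was higher in Cd24a-high cells by 1.24 ± 0.10 in WT (adjusted p = 1.14e-07) and 3.25 ± 0.14 in KO (adjusted p = 2.64e-10), and Notch3 by 0.94 ± 0.17 (adjusted p = 0.000296) and 3.54 ± 0.31 (adjusted p = 4.11e-07). The WT call of Notch3 was lost without the second WT library (adjusted p = 0.172). Dtx1 was lower in Cd24a-high than in Cd24a-low WT cells (-1.45 ± 0.18, adjusted p = 9.62e-06) and higher in Cd24a-high KO cells (1.30 ± 0.22, adjusted p = 0.000155). Nrarp was turned the other way, higher in Cd24a-high WT cells (1.63 ± 0.31, adjusted p = 0.000467) and lower in Cd24a-high KO cells (-2.21 ± 0.39, adjusted p = 0.000258). The WT difference of Nrarp fell to 0.25 after thinning (adjusted p = 0.87) and its call was also lost without the second WT library, and the KO call was lost at a limit of 4 Cd24a UMIs (adjusted p = 0.0714). Notch2 was lower in Cd24a-high cells (-0.34 ± 0.09 in WT, adjusted p = 0.00439, and -1.54 ± 0.13 in KO, adjusted p = 2.61e-07) and Notch1 higher (0.71 ± 0.11, adjusted p = 0.000208, and 0.49 ± 0.14, adjusted p = 0.0135). The WT Notch2 call was lost without either WT library, after thinning and with DESeq2, and the KO Notch1 call without either KO library, after thinning, with a limit of 4 Cd24a UMIs and without the library block. Of the 7 genes, 6 passed in WT and 6 in KO, against 55.7% and 51.8% of all genes. How far the contrast differed between labels was not tested.

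**Figure D4:**
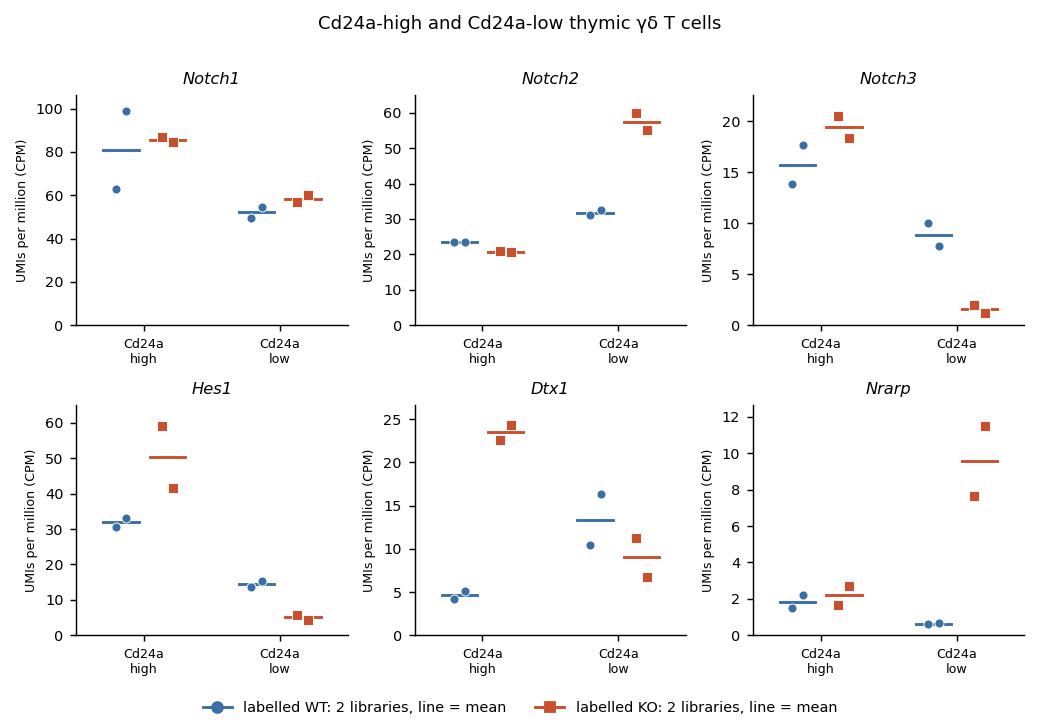
CPM of 6 of the 7 genes (Heyl was too scarce) in Cd24a-high and Cd24a-low thymic γδ T cells, with 1 point per library and the mean of each label as a line. In Cd24a-high cells Dtx1 was 22.6 and 24.3 CPM in KO against 4.15 and 5.10 CPM in WT, and in Cd24a-low cells Nrarp was 7.67 and 11.5 CPM in KO against 0.626 and 0.651 CPM in WT.

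A list of 64 other genes of the pathway was read in the same fits, and 57 of them passed the filter on low counts. These fits were of whole compartments, whose make-up differed between labels as given above. Its part in the differences below was not tested. Of all genes tested, 28.6% rose and 26.1% fell in the spleen, 26.1% and 23.7% in thymic γδ T cells, and 15.2% and 7.73% in DN cells (54.8%, 49.7% and 23% in all). In the spleen 17 rose and 16 fell (median log2 difference -0.01, against 0.00 over all genes), in thymic γδ T cells 20 rose and 14 fell (median 0.12), and in DN cells 11 rose and 1 fell (median 0.09, against -0.02 over all genes). Genes of receptor processing and glycosylation mostly rose where they passed: 7 of 15 rose and 0 fell in the spleen, 9 rose and 1 fell in thymic γδ T cells, and 5 rose and 0 fell in DN cells. Furin, the protease that makes the first cut of the receptor, was 11.6 and 11.2 CPM in WT and 60.8 and 25.3 CPM in KO DN libraries (1.89 ± 0.33, adjusted p = 0.00294), and rose by 2.03 ± 0.32 in the spleen and 2.12 ± 0.33 in thymic γδ T cells. Psen2, a catalytic subunit of γ-secretase, rose by 1.45 ± 0.17, 2.32 ± 0.17 and 1.10 ± 0.17 in spleen, thymic γδ T and DN cells. Lfng, the glycosyltransferase Lunatic fringe, rose by 1.41 ± 0.17 in thymic γδ T and 1.03 ± 0.18 in DN cells, and Psenen, another γ-secretase subunit, by 0.34 ± 0.10 in DN cells (adjusted p = 0.038). The first DN KO library, which stood apart above, gave the higher Furin, Psen2 and Lfng values of its group.

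Within the nuclear complex and its corepressors, 4 of 14 genes rose and 4 fell in the spleen, 3 and 3 in thymic γδ T cells and 1 and 0 in DN cells. Rbpj, the DNA-binding partner of Notch, was 46.3 and 45.1 CPM in WT and 187 and 172 CPM in KO splenic libraries (2.07 ± 0.11) and 55.4 and 57.5 against 138 and 116 CPM in thymic γδ libraries (1.29 ± 0.11). Maml3, a Mastermind coactivator, went the other way, from 118 and 94.2 to 2.93 and 2.40 CPM in the spleen (-5.23 ± 0.31) and by -1.22 ± 0.25 in thymic γδ T cells (adjusted p = 0.00281). The corepressor gene Tle4 fell in the spleen (-1.38 ± 0.17) and rose in DN cells (0.87 ± 0.17, adjusted p = 0.00433). The difference of these Tle4 effects was not tested.

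Of the T-lineage targets of Notch, 2 of 7 rose and 3 fell in the spleen, 2 rose and 4 fell in thymic γδ T cells, and 2 rose and 0 fell in DN cells. Tcf7, which encodes the transcription factor TCF1, fell from 532 and 593 to 35.0 and 43.4 CPM in the spleen (-3.75 ± 0.15) and by -1.36 ± 0.14 in thymic γδ T cells. Myc, a growth regulator, fell in the spleen (-3.18 ± 0.31). Il2ra, the IL-2 receptor α chain, rose by 2.91 ± 0.25 in the spleen and 2.60 ± 0.25 in thymic γδ T cells, and Igf1r, a growth factor receptor, by 1.37 ± 0.23 and 1.65 ± 0.24. Inside splenic Trgv6+ cells, the study's own test of single cells had Igf1r lower in KO, opposite to the whole spleen. There Il2ra was higher and Tcf7 and Myc were lower, as over all splenic cells. The study's test also had Dtx1 and Notch2 lower in KO, of which only Dtx1 passed the library test in Trgv6-called cells above. It counts cells as replicates, so its calls and those of the library sums are not alike. Gata3, a T-lineage transcription factor, rose by 0.41 ± 0.10 (adjusted p = 0.0122) and the pseudokinase gene Trib2 by 0.98 ± 0.18 (adjusted p = 0.00434) in DN cells.

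In the endocytosis and turnover group, 2 of 12 tested genes rose and 6 fell in the spleen, 3 and 2 in thymic γδ T cells, and 1 and 0 in DN cells. Dtx4, a relative of Dtx1, was 1.09 and 1.42 CPM in WT and 22.6 and 33.4 CPM in KO thymic γδ libraries (4.60 ± 0.34). Neurl3, of the neuralized family of E3 ligases, fell in the spleen (-3.96 ± 0.23), and Mib1, an E3 ligase that acts on Notch ligands, rose in thymic γδ T cells (1.26 ± 0.13). Other Hes and Hey genes gave 2 higher and 2 lower of 5 tested in each γδ compartment and 1 higher in DN cells, and of the other receptor and ligands 4 of 8 were tested, with 1 lower in the spleen, 1 higher and 2 lower in thymic γδ T cells, and 1 higher and 1 lower in DN cells.

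**Figure D5:**
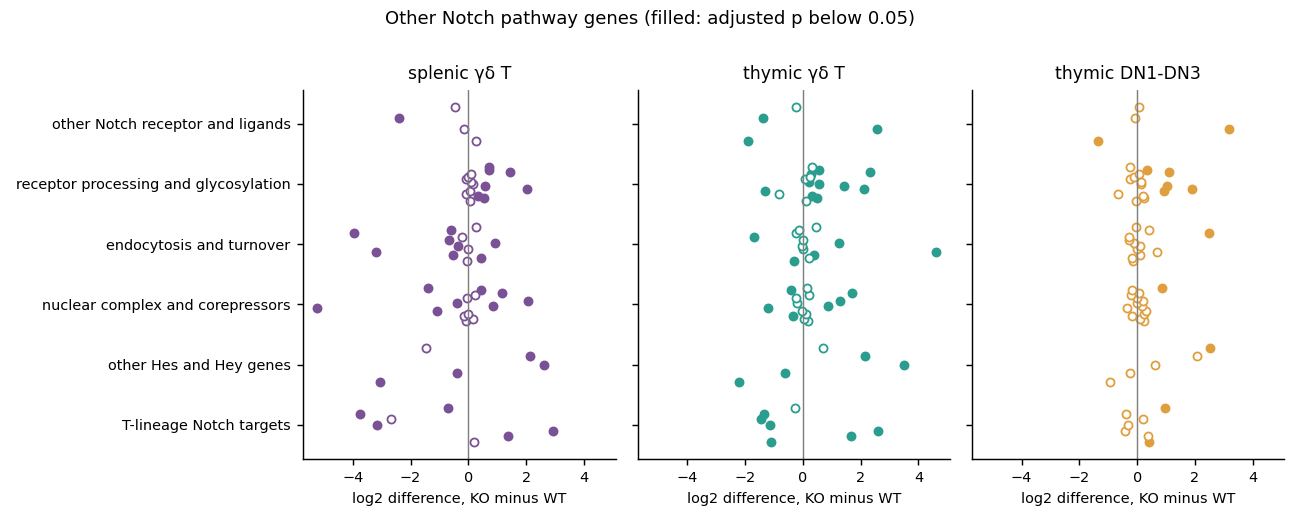
KO minus WT log2 difference of the 57 other pathway genes tested, 1 point per gene, by functional group (rows) and compartment (panels), filled where the adjusted p was under 0.05. Maml3 lay furthest below 0 in the spleen (-5.23) and Dtx4 furthest above 0 in thymic γδ T cells (4.60), and most filled points of receptor processing and glycosylation lay above 0.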

How the data were processed

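Sorted cells were profiled with a 10x Genomics 3′ kit after magnetic depletion of B, myeloid and NK cells and hashtag pooling of WT with KO cells. The deposited matrices hold the authors' UMI counts per gene and barcode, not normalized. Per the submitters' processing notes these used Cell Ranger 8.0.1 and GRCm39, and the authors split pools with hashsolo, so that each of 6 pools gave 1 WT and 1 KO library. Here, barcodes under 500 UMIs or 200 genes, or above 20% mitochondrial UMIs, were dropped (96911 of 97404 remained), and ribosomal, mitochondrial and Gm-numbered genes were left out of tests. No doublet caller was run. Libraries of the same pool shared 0 barcodes and the 60 other pairs 5 to 34. CPM divides by all UMIs of kept cells.

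Counts were summed per library or class and tested with edgeR 4.0.16 (TMM, filterByExpr, robust quasi-likelihood) in R 4.3.3, with limma 3.58.1 and adjustment over all genes at 0.05. The edgeR fit was tried on simulated counts for splenic KO against WT, the Ptcra against the Kit class in WT, and KO against WT in the Ptcra class. The other steps were not tried on simulated data. The compartments were fitted together without a block, classes of DN, Trgv6-called and Cd24a cells in fits of their own, and contrasts between classes of a library with the library as block. DESeq2 1.42.0 was an alternative, as were scaling by library size, no filter on low counts, all genes or barcodes kept, no cells with Cd79a or Cd79b, thinning to 3000 or 2000 UMIs, other class limits, a replicate block and leaving out each library. The labels state that WT and KO cells of a number were pooled, so the numbers pair them, and deviations of same-pool libraries from their group means correlated at 0.489 in spleen, 0.383 in DN and 0.0508 in thymic γδ cells over 8924 genes. Count ratios have exact conditional 95% intervals, and a count of 0 is read as up to 3 UMIs, both for counting error only. Shares were compared by two-sided exact permutation.

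The 7 genes and all lists were chosen with earlier results of these data known. All 7 were read in each comparison where their counts allowed a test, the text giving mainly those called, and of the 64 other pathway genes those called with a mean of at least 10 CPM, up to 10 per comparison by size. Python 3.11.15 with numpy 2.4.6, pandas 2.3.3, scipy 1.17.1 and matplotlib 3.10.9 made the sums and plots.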

Additional observations from a re-analysis of the deposited data

Results flagged for a closer look

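The KO minus WT effect of 6 gene and contrast pairs differed between compartments or classes by a test of the difference itself. Between splenic and thymic γδ T cells the effect differed by -2.59 ± 0.40 (log2, SE) for Hes1 and by -5.04 ± 0.44 for Nrarp. Hes1 fell in both, by more in the spleen, whereas Nrarp fell in the spleen and rose in the thymus, and tissue and sex cannot be told apart in either difference. Between thymic γδ T and DN1–DN3 cells it differed by 0.89 ± 0.20 for Notch2, -1.45 ± 0.28 for Notch3 and 3.0 ± 0.39 for Nrarp. The step of Dtx1 from the Kit to the Ptcra class differed by -0.52 ± 0.12 between KO and WT. The adjusted p-values, from edgeR's quasi-likelihood test, stand beside these values in the text above. Single libraries were left out in turn, and groups of 2 libraries are too small for a formal test of an outlying library.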

How the results depend on the processing

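Of 1733 alternative values for the 7 genes, 1649 kept their side of the threshold, 31 passed it newly and 53 no longer passed it. The sign changed in 57 of the 1649, none of them called in either fit, and 1592 kept both. With 2 libraries in a group, any call rests on few residual degrees of freedom and on a spread that the fit shares between genes. For cycling against non-cycling cells the p-values rest almost wholly on that shared spread. Where leaving out a library left 1 in an arm, that library was assumed to vary like the other groups. The number of the 7 genes called moved by over 1.5 times in the cases below, whose cause was not tested, and by 1 or 2 genes in others. In DN cells it was 1, and 0 to 1 without single libraries. For the thymic γδ minus DN difference it was 3, but 5 with DESeq2 and 2 to 5 without single libraries. In the Ptcra class it was 1, but 2 with DESeq2 and 5 with the replicate block. In Cd24a-high cells it was 2, but 1 after thinning, 1 with a limit of 4 Cd24a UMIs and 1 to 3 without single libraries. For the Ptcra minus Kit difference it was 1, but 0 with DESeq2, 0 after thinning and 0 without the replicate block (Dtx1 adjusted p = 0.411), and 0 to 2 without single libraries. For Cd24a-high against Cd24a-low in WT it was 6, and 3 to 5 without single libraries. A block of the replicate number, shared by the compartments, brought Notch2 past the threshold in the splenic against thymic γδ comparison of KO (adjusted p = 0.0429). Leaving out the library block, Nrarp (Ptcra against Kit class in WT, adjusted p = 0.18) and Notch1 (Cd24a classes in KO, adjusted p = 0.101) no longer passed. Beside these and the block results given with the values above, the block changed no other call.

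Scaling by library size alone shifted the median of all genes by -0.22 in the spleen and -0.11 in thymic γδ T cells and moved the share of calls that were higher from 52.3% to 34.0% and from 52.4% to 42.4%. The share moved from 46.2% to 33.1% for the spleen minus thymic γδ difference, from 40.4% to 29.8% for thymic γδ minus DN, from 52.9% to 39.1% for thymic γδ against DN in KO, from 41.5% to 25.9% for splenic against thymic γδ in KO, from 51.8% to 41.2% in Cd24a-low cells, from 47.2% to 60.8% for the Ptcra minus Kit difference, and from 51.6% to 37.0% in WT and 56.9% to 37.8% in KO for cycling against non-cycling cells. The number of genes called among all tested, with its lowest and highest value over the alternatives, was 3424 (1675 to 5038) for KO against WT in DN cells, 4405 (2634 to 5238) for the spleen minus thymic γδ difference, 3258 (1883 to 3943) for the thymic γδ minus DN difference, 7034 (4654 to 8462) for thymic γδ against DN in WT, 5453 (3592 to 6123) for splenic against thymic γδ in KO, 1024 (608 to 1794) for KO against WT in the Kit class. It was 2226 (1152 to 3854) for the Ptcra class, 1379 (559 to 1989) for Trgv6-called splenic cells, 947 (186 to 1903) for Cd24a-high cells, 7500 (3944 to 8701) for Cd24a-low cells, 2833 (952 to 3114) for Ptcra against Kit class in WT, and 3834 (1578 to 4116) for the same in KO, 742 (17 to 1424) for the difference of these, 7596 (4428 to 8239) for Cd24a-high against Cd24a-low in WT, 7055 (3901 to 7634) for the same in KO, 6380 (2871 to 6830) for cycling against non-cycling in WT, 4916 (1674 to 5593) for the same in KO. Heyl, Notch3 in the spleen and Nrarp in WT γδ T cells rested on few UMIs.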

Other observations

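Over the 12 libraries, the genes whose log2(CPM + 1) was most like that of each of the 7, among 8603 compared, were described by Pearson's r without a test. These libraries share pools, animals and compartments, and most of the variation lies between compartments. For Notch1 they were Bst1 (0.991), 0610009E02Rik (0.987) and Ppt1 (0.987), and for Notch3 Chrna9 (0.997), Prss57 (0.996) and Rnf220 (0.994). Hes1 was most like Rnf157 (0.993), Malsu1 (0.992) and Ccdc58 (0.991). Notch2 was most like Map3k14 (0.984), Pfkp (0.982) and Ccng1 (0.982), and Heyl most like Usp24 (0.965), Ly75 (0.944) and Zfp763 (0.938). Dtx1 and Nrarp had no gene so close: Larp1b (0.915), Dnajc15 (0.908) and Frmd8 (0.900) came nearest to Dtx1, and Arhgap39 (0.925), Ldlrad4 (0.904) and Ly6e (0.899) to Nrarp. Among the 7 genes themselves, Notch3 and Hes1 (0.958) and Notch1 and Notch3 (0.925) were most alike, and Notch2 and Hes1 were most opposed (-0.880).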
